A study of Mus musculus with 12 samples.

Results

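The Ikaros family of transcription factors has 5 genes in the mouse, Ikzf1 (Ikaros), Ikzf2 (Helios), Ikzf3 (Aiolos), Ikzf4 (Eos) and Ikzf5 (Pegasus), and their transcripts were followed in regulatory T cells (Treg) that carried or lacked a working Ikzf1 gene. The genes were taken by name from a table of 36222 genes, in which each name stood for 1 gene identifier: ENSMUSG00000018654 for Ikzf1, ENSMUSG00000025997 for Ikzf2, ENSMUSG00000018168 for Ikzf3, ENSMUSG00000002578 for Ikzf4 and ENSMUSG00000040167 for Ikzf5. CD4+ YFP+ Treg were sorted from Foxp3-YFP-Cre mice on the B6 background, which served as wild type (WT), and from mice that in addition had both Ikzf1 alleles flanked by loxP sites (cKO), in which Cre driven from the Foxp3 locus removes the floxed part of Ikzf1 once a cell turns Foxp3 on. Both genotypes therefore carried the Foxp3-YFP-Cre allele, and the mice were 6 to 8 weeks old. The study's methods name spleen and lymph nodes as the source of its purified T cells and Treg. RNA was sequenced from 4 groups of 3 libraries each: WT ex vivo and cKO ex vivo cells were taken straight from the sort, and WT stimulated and cKO stimulated cells were cultured for 4 h on plate-bound anti-CD3 and anti-CD28 at 1 µg/ml each, which engage the T cell receptor and its co-receptor CD28.

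Ikaros family proteins are zinc finger proteins of lymphocytes. A cluster of fingers near the amino end binds DNA, and a pair of fingers at the carboxyl end lets the proteins bind one another, so that each member can form homodimers and mixed dimers with the others. They recruit chromatin complexes such as NuRD, Sin3 and CtBP and act mainly as repressors in lymphocytes. In Treg, Helios is known as a marker of cells of thymic origin that helps to keep their identity stable, Eos is known as a partner through which Foxp3 silences genes, Aiolos is best known from B cells and helper T cells, where it restrains Il2, and Pegasus is a distant relative that recognises other DNA sequences.

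The coding bases of a DNA-binding finger are shown because such fingers define the family and because they show how far reads from its members can be told apart. The sequences were read from the GENCODE M1 transcript with the longest coding sequence of each gene on NCBIM37 (mm9), 5′ to 3′ on the coding strand, and capitals mark the bases that differ from Ikzf1. The second DNA-binding finger was used for Ikzf1 to Ikzf4 and, for Ikzf5, the finger of the amino-terminal cluster with most bases in common with it.
Ikzf1, chr11:11654021-11654089, plus strand, exon 5: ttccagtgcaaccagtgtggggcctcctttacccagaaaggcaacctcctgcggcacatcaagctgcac
Ikzf2, chr1:69617155-69617223, minus strand, exon 5: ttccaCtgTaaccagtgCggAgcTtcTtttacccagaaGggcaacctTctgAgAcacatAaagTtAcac
Ikzf3, chr11:98350254-98350322, minus strand, exon 5: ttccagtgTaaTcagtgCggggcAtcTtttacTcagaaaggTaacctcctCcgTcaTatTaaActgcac
Ikzf4, chr10:128077285-128077353, minus strand, exon 5: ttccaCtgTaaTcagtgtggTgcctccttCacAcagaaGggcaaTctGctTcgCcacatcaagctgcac
Ikzf5, chr7:138537273-138537341, minus strand, exon 3: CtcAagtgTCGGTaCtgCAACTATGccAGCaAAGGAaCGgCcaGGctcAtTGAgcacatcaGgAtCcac

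In the DNA-binding finger, Ikzf2, Ikzf3 and Ikzf4 shared 56, 57 and 58 of 69 bases with Ikzf1 and encoded 22, 23 and 22 of the same 23 residues. Ikzf5 shared 33 of 69 bases and 6 of 23 residues with Ikzf1. Over all annotated coding transcripts, the longest run of identical bases between 2 members was 32, between Ikzf2 and Ikzf4, so none of the 10 pairs shared a run as long as a 51-base read. The genes lie on NCBIM37 at chr11:11585006-11672929 on the plus strand (Ikzf1) and, on the minus strand, at chr1:69577788-69732534 (Ikzf2), chr11:98326216-98407345 (Ikzf3), chr10:128067899-128083047 (Ikzf4) and chr7:138532166-138554035 (Ikzf5). The only annotated exon that overlapped an exon of a member was one of the antisense gene Gm17336, over 37 bases of Ikzf4, and reads were counted by strand.

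Between 8208659 and 20247649 reads per library were assigned to genes, and 195 to 26420 of them to a family member. The smallest of these numbers, for Ikzf5 in cKO stimulated replicate 3, carries a counting error of 7.16%, and counting error for the other 4 genes was at most 3.72%. Levels are given as TPM, an abundance of transcripts corrected for gene length and for the library total. A single predicted gene, Gm10800, took 17.7% to 55.9% of the TPM of a library, namely 17.7% to 39.8% (WT) and 20.4% to 24.4% (cKO) in ex vivo libraries and 32.6% to 44.4% (WT) and 42.9% to 55.9% (cKO) in stimulated ones. Its part in the results was not tested beyond a repeat with TPM rescaled without it. Comparisons were therefore made by limma on log2(TPM + 1) after scaling by trimmed means of M-values (TMM), so that each change is relative to the bulk of the 13318 genes tested. A change was called at a Benjamini-Hochberg adjusted p under 0.05 over those genes. The Treg markers Foxp3, Il2ra, Ctla4, Tnfrsf18, Nrp1, Cd4 and Cd3e were present in every group, with group means from 28.5 TPM (Nrp1, cKO stimulated) to 737 TPM (Ctla4, cKO ex vivo). The summed level of 12 markers of CD8 T cells, B cells, myeloid cells, NK cells and red cells was 22.8 to 40.6 TPM per library, with the highest marker, Cd8b1, at group means of 8.15 to 11.5 TPM and Hba-a1 at 0 in the WT stimulated group. WT ex vivo replicate 3 had Xist at 179 TPM and the Y-linked gene Ddx3y at 0.097 TPM and was thus from a female, whereas the other 11 libraries had Ddx3y at 14.7 to 52.8 TPM. In RNA from bulk cells, fewer cells that express a gene and less of its RNA per cell cannot be told apart.

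In WT Treg ex vivo, Helios and Ikaros transcripts made up most of the family's RNA. Ikzf2 stood at 132 ± 26.7 TPM (SD, n = 3) and Ikzf1 at 105 ± 20.6 TPM, with overlapping ranges although Ikzf2 was the higher in 3 of 3 libraries. Ikzf4 followed at 36.4 ± 4.96 TPM, Ikzf3 at 26.6 ± 5.58 TPM and Ikzf5 at 12.05 ± 2.91 TPM. The ranges of Ikzf4 and Ikzf3 overlapped, and those of Ikzf1 and Ikzf4 and of Ikzf3 and Ikzf5 did not. By group mean, Ikzf2 was higher than 97.0% of the tested genes and Ikzf5 higher than 57.8%.

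The order differed between the groups, with Ikzf2 first and at 123 TPM or more in every group mean. In cKO ex vivo Treg, Ikzf4 was second at 65.3 ± 2.81 TPM, ahead of Ikzf1 without overlap, and the ranges of Ikzf1 at 41.9 ± 2.82 TPM and Ikzf3 at 39.3 ± 1.73 TPM overlapped. In WT stimulated Treg, Ikzf4 at 76.7 ± 10.1 TPM and Ikzf1 at 74.8 ± 8.48 TPM could not be separated, and Ikzf4 was the higher in 2 of 3 libraries. In cKO stimulated Treg, Ikzf2 at 123 ± 34.3 TPM and Ikzf4 at 79.1 ± 24.0 TPM overlapped, as did Ikzf3 at 26.4 ± 8.88 TPM and Ikzf1 at 25.2 ± 7.43 TPM, while Ikzf5 was last at 7.39 ± 1.91 TPM.

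**Figure D1:**
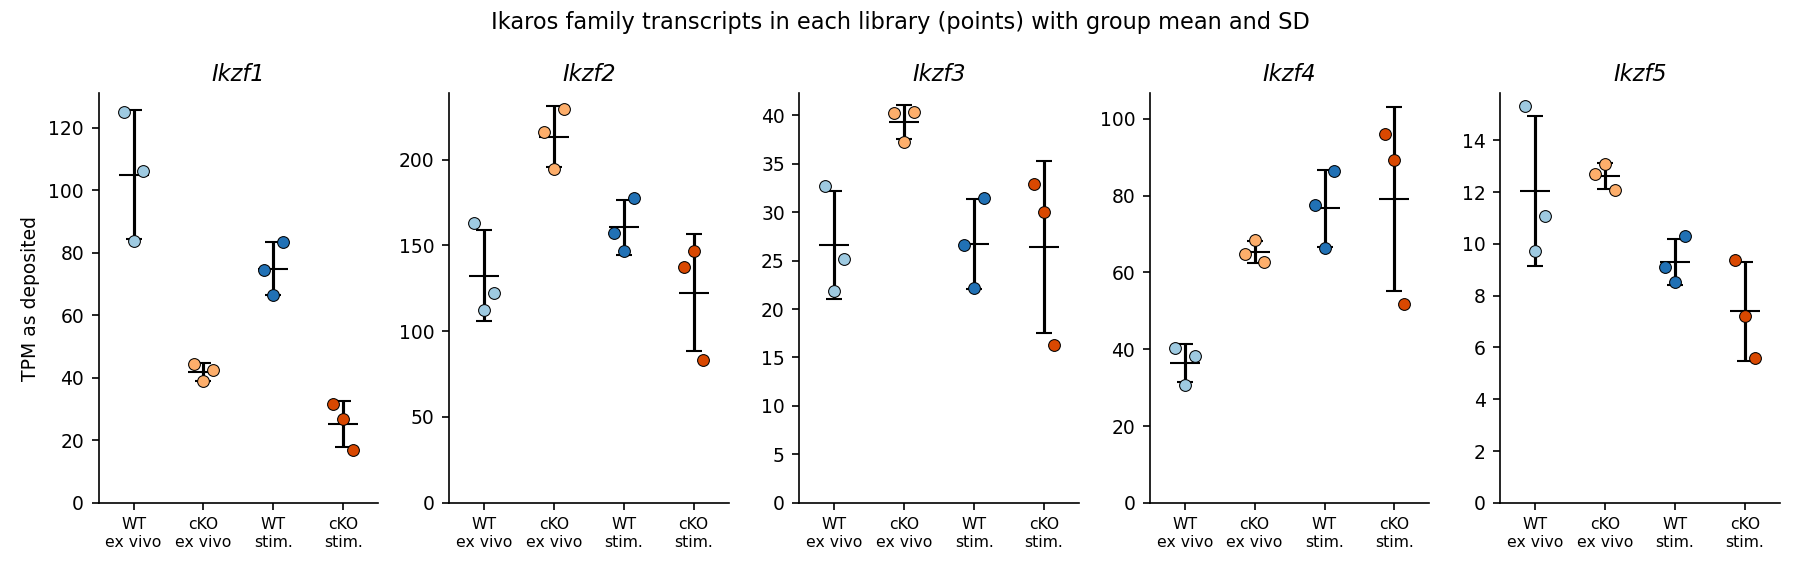
TPM of the 5 genes (one panel each, vertical axes from 0 and on different scales) in each of the 12 libraries, as points, with the mean and SD of the 3 libraries of a group. The cKO groups lie below the WT groups for Ikzf1, Ikzf2 is highest in the cKO ex vivo group (194 to 229.5 TPM), and Ikzf4 is lowest in the WT ex vivo group (30.8 to 40.3 TPM).

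The targeted gene was checked first. The WT ex vivo libraries held 125, 83.8 and 106 TPM of Ikzf1 and the cKO ex vivo libraries 44.3, 38.8 and 42.6 TPM. The WT stimulated libraries held 74.7, 66.4 and 83.4 TPM and the cKO stimulated libraries 31.6, 26.9 and 17.0 TPM. In both conditions every cKO library lay below every WT library. In TPM the cKO mean was 40.0% of WT ex vivo and 33.6% after stimulation. In scaled TPM it was 34.4% and 40.3%, so the condition with the deeper fall depended on the scaling. On the scaled log2 scale the falls were by 1.52 ± 0.11 ex vivo (SE, limma adjusted p = 5.45e-05) and by 1.29 ± 0.11 after stimulation (adjusted p = 0.000161). Both were called in all 24 alternative analyses. The deposited values sum reads over all exons of the gene, so RNA from exons that the deletion leaves in place and RNA from cells that escaped it cannot be told apart.

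Ikzf4, which encodes Eos, was the only other member whose transcript differed between the genotypes ex vivo by the main test. Its level was 40.3, 30.8 and 38.1 TPM in WT ex vivo libraries, against 64.9, 68.4 and 62.8 TPM in cKO ex vivo libraries, and the groups were well apart. In TPM the cKO mean reached 179.6% of that in WT, and the scaled log2 level was higher in cKO by 0.60 ± 0.11 (limma adjusted p = 0.0119). Leaving out cKO ex vivo replicate 1 ended the call (adjusted p = 0.0553). It was also lost with TPM as deposited, with a filter at 1 TPM and with no filter, at log2 differences of 0.84, 0.59 and 0.61 and adjusted p of 0.0858, 0.648 and 0.611.

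Ikzf2 and Ikzf3 were also higher in cKO ex vivo libraries in TPM, but neither was called by the main test. The WT ex vivo libraries had 163, 112 and 122 TPM of Ikzf2 and the cKO ex vivo libraries 216, 194 and 229.5 TPM. For Ikzf3 the values were 32.7, 21.8 and 25.1 TPM (WT) and 40.3, 37.3 and 40.3 TPM (cKO). For both genes all cKO values exceeded all WT values. The scaled log2 differences were 0.46 ± 0.14 for Ikzf2 (limma adjusted p = 0.0868) and 0.33 ± 0.14 for Ikzf3 (adjusted p = 0.218), with unadjusted p of 0.0064 and 0.0315. Ikzf2 passed the threshold in 5 of 24 alternatives and Ikzf3 in 0 of 24. Ikzf5 overlapped between the genotypes, with 15.3, 9.74 and 11.1 TPM (WT) and 12.7, 13.1 and 12.1 TPM (cKO), with a scaled log2 difference of −0.13 ± 0.09 (adjusted p = 0.508).

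Of the 5 genes, 1 was called higher and 1 lower in cKO Treg ex vivo, where 3.62% of all tested genes were called higher and 1.67% lower. In unscaled TPM 4 of 5 did not overlap between the genotypes, as was the case for 22.9% of the tested genes. With TPM rescaled without Gm10800, 680 genes were called higher and 68 lower in place of 482 and 222, and the median gene stood at 0.15 on the log2 scale. With TPM as deposited the split was 260 and 13, with the median gene at 0.21. The signs of Ikzf1, Ikzf2, Ikzf3 and Ikzf4 were the same under every scaling tried, and that of Ikzf5 turned positive with deposited TPM (0.085) and without Gm10800 (0.020).

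After stimulation, Ikzf1 was the only member called between the genotypes. The WT stimulated libraries had 77.5, 66.3 and 86.4 TPM of Ikzf4 and the cKO stimulated libraries 96.2, 89.3 and 51.7 TPM, and the ranges overlapped. The low value came from cKO stimulated replicate 3, the library with most Gm10800 (55.9%) and fewest reads, which was also lowest of its group for the other 4 genes. On the scaled log2 scale, Ikzf4 differed by 0.29 ± 0.11 (limma adjusted p = 0.154), and without that library by 0.46 ± 0.08 (adjusted p = 0.00904). It differed by 0.16 without cKO stimulated replicate 2 (adjusted p = 0.363), by 0.0010 with TPM as deposited, and by −0.014 and −0.011 with a filter at 1 TPM and none. Ikzf3 values were 26.6, 22.2 and 31.4 TPM (WT) and 33.0, 30.04 and 16.3 TPM (cKO). Its scaled log2 difference of 0.22 ± 0.14 (adjusted p = 0.352) became 0.42 ± 0.10 (adjusted p = 0.0357) without the same library and 0.078 (adjusted p = 0.734) without cKO stimulated replicate 2. Its sign turned with TPM as deposited (−0.062) and with a filter at 1 TPM (−0.076) or none (−0.072). Neither gene thus had an established direction here. With a library left out, the cKO group of 2 rests on a spread shared with the other groups.

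Stimulated libraries had 157, 147 and 178 TPM (WT) and 137, 147 and 83.4 TPM (cKO) of Ikzf2, with a scaled log2 difference of −0.13 ± 0.14 (limma adjusted p = 0.577). For Ikzf5 they had 9.12, 8.54 and 10.3 TPM (WT) and 9.39, 7.20 and 5.58 TPM (cKO), with a difference of −0.06 ± 0.09 (adjusted p = 0.705). The same held for these genes, since both signs turned without cKO stimulated replicate 3 (0.016 and 0.010). In this comparison 0 of 5 members were called higher and 1 lower, against 3.30% and 3.63% of all tested genes, and 1 of 5 did not overlap in TPM, against 30.8%. With TPM as deposited, 69 genes were called higher and 237 lower in place of 439 and 484, with the median gene at −0.30.

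**Figure D2:**
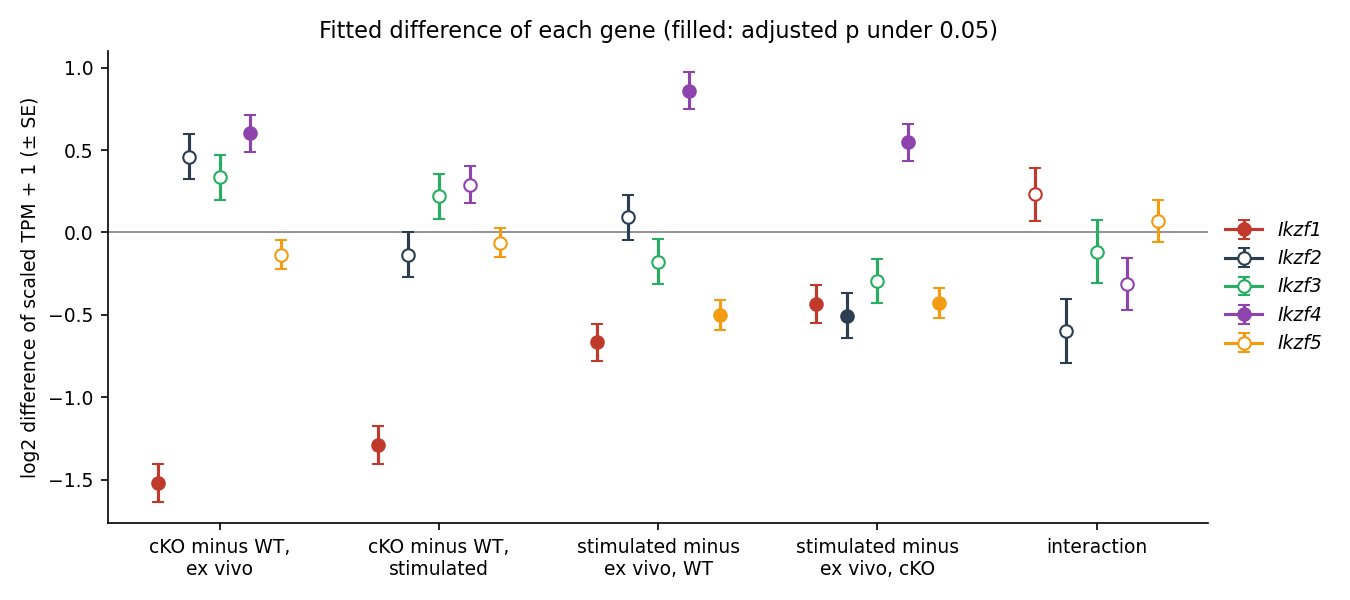
Log2 difference of scaled TPM + 1, with its standard error, for each gene in the 4 comparisons and for the interaction (the stimulation effect in cKO minus that in WT). Filled points passed an adjusted p of 0.05: Ikzf1 and Ikzf4 ex vivo, Ikzf1 after stimulation, Ikzf1, Ikzf4 and Ikzf5 with stimulation in WT, these and Ikzf2 with stimulation in cKO, and no gene for the interaction.

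Ikaros transcripts were lower and Eos transcripts higher in WT Treg after 4 h of stimulation. Only the stimulated cells were cultured, so the effects of culture and of anti-CD3 and anti-CD28 cannot be told apart in any comparison of stimulated with ex vivo cells. From the WT ex vivo to the WT stimulated libraries listed above, Ikzf4 rose to 211% of its ex vivo mean in TPM, by 0.86 ± 0.11 on the scaled log2 scale (limma adjusted p = 0.000217). Ikzf1 went to 71.3% of its ex vivo mean and fell by 0.67 ± 0.11 (adjusted p = 0.00122). For both genes the ex vivo and stimulated libraries did not overlap. The Ikzf1 call was lost with TPM as deposited and both calls with a filter at 1 TPM or none, at adjusted p from 0.0573 to 0.191. Ikzf5 fell by 0.50 ± 0.09 (adjusted p = 0.00164), with TPM ranges that just overlapped. Ikzf2 and Ikzf3 were not called, at 0.09 ± 0.14 (adjusted p = 0.647) and −0.18 ± 0.14 (adjusted p = 0.347).

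These changes are relative to the bulk of the transcriptome. In TPM rescaled without Gm10800 the median gene was 0.42 higher in stimulated WT Treg, and 5476 genes were called higher and 867 lower in place of 1688 and 2574. Without Gm10800 Ikzf1 stood at −0.22 and Ikzf5 at −0.095, with adjusted p of 0.164 and 0.576, so both calls were lost, whereas Ikzf4 was higher by 1.31 (adjusted p = 3.98e-05) and Ikzf2 by 0.54 (adjusted p = 0.0124). With TPM as deposited the split of all calls was 1175 and 768 with the median gene at 0.18, and with quantile normalization it was 2063 and 1920. In the main analysis 1 of 5 members was called higher and 2 lower with stimulation in WT, against 12.7% and 19.3% of all tested genes, and 2 of 5 did not overlap in TPM, against 33.1%.

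In cKO Treg the stimulation changes had the same signs for Ikzf1, Ikzf4 and Ikzf5, and Ikzf2 was called as well. Ikzf4 was higher by 0.55 ± 0.11 on the scaled log2 scale (limma adjusted p = 0.00311), Ikzf1 fell by 0.44 ± 0.11 (adjusted p = 0.011) and Ikzf5 fell by 0.43 ± 0.09 (adjusted p = 0.00341). In TPM the 3 cKO ex vivo values of Ikzf4 overlapped with the stimulated ones through cKO stimulated replicate 3, and the call was lost with TPM as deposited (0.22, adjusted p = 0.465) and with a filter at 1 TPM or none (0.0060 and 0.017). Ikzf2 fell by 0.50 ± 0.14 (adjusted p = 0.0131), to 57.4% of its ex vivo mean in TPM, and no stimulated cKO library reached the lowest ex vivo one. Ikzf3 stood at −0.29 ± 0.14 (adjusted p = 0.1002).

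Some of these calls leaned on single libraries. The Ikzf2 call was lost without cKO ex vivo replicate 1, cKO ex vivo replicate 3 or cKO stimulated replicate 3, with adjusted p of 0.0536, 0.0528 and 0.066, and the Ikzf1 call without cKO ex vivo replicate 1 or cKO stimulated replicate 3, with adjusted p of 0.052 and 0.0614. Under quantile normalization Ikzf2 was called in the opposite direction, at 0.25 (adjusted p = 0.0451). In TPM rescaled without Gm10800 the median gene was 0.24 higher, 3855 genes were called higher and 1753 lower in place of 2305 and 3530 (with TPM as deposited 558 and 4116, with the median gene at −0.31), and Ikzf4 was the only member called (0.81, adjusted p = 0.000948). In the main analysis 1 of 5 members was called higher and 3 lower, against 17.3% and 26.5% of all tested genes, and 4 of 5 did not overlap in TPM, against 51.4%.

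No member was called for the interaction, the stimulation effect in cKO minus that in WT, for which 1.10% of all tested genes were called by limma (60 higher and 87 lower, 39 and 219 with TPM rescaled without Gm10800, 6 and 61 with TPM as deposited). Voom on recovered reads called 0 of 5 members too, against 2.97% of all tested genes. The largest value was that of Ikzf2, at −0.60 ± 0.19 (adjusted p = 0.182, unadjusted p = 0.0107). By limma 1 of 5 members, Ikzf2, had an unadjusted p under 0.05, against 14.5% of all tested genes. The Ikzf2 value passed the threshold in 1 of 23 alternatives, with array weights (−0.67, adjusted p = 0.0399). The other members stood at 0.23 ± 0.16 for Ikzf1, −0.12 ± 0.19 for Ikzf3, −0.31 ± 0.16 for Ikzf4 and 0.07 ± 0.13 for Ikzf5, with adjusted p from 0.396 to 0.831. No direction was established for Ikzf1 or Ikzf5, which stood at −0.29 and −0.40 with TPM as deposited, or for Ikzf3, which stood at 0.10 without cKO stimulated replicate 3. Ikzf1 stood at 0.39 and Ikzf4 at −0.12 without cKO stimulated replicate 3, and Ikzf1 stood at 0.14 without cKO ex vivo replicate 2 or cKO stimulated replicate 2. The 4 comparisons share groups, so their values for one gene are not independent of one another.

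**Figure D3:**
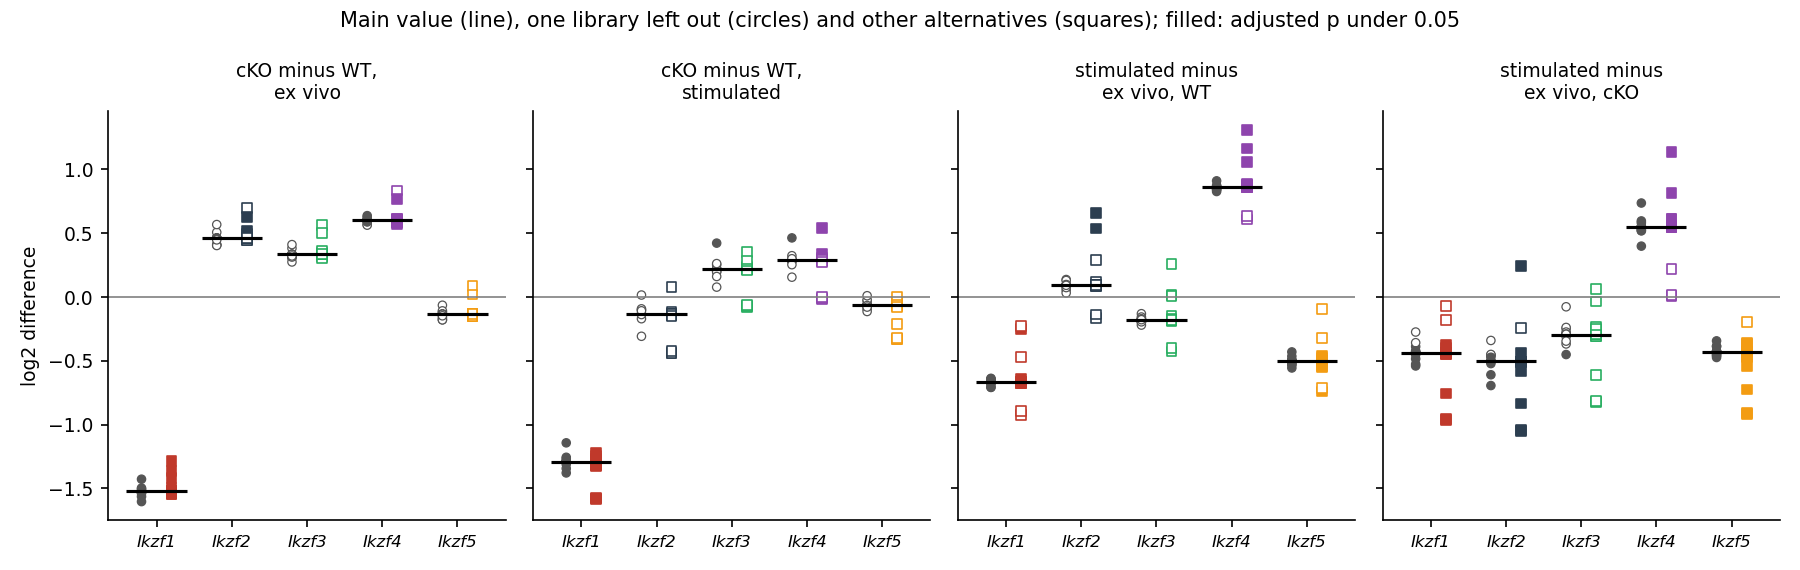
Log2 difference of each gene in the 4 comparisons under the main analysis (line), with 1 library left out (circles, 12 per gene) and under the other alternatives (squares), filled where the adjusted p was under 0.05. Ikzf1 stays filled and far below 0 between the genotypes, whereas Ikzf2 and Ikzf3 cross 0 in 3 of the 4 comparisons.

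Within a library, the level of one member relative to another does not depend on how libraries are scaled. The share of each gene in the summed TPM of the 5 was close among replicates, with SDs of at most 2.22 percentage points. In WT ex vivo Treg, Ikzf2 made up 42.4% ± 1.75 of the sum, Ikzf1 33.6% ± 1.37, Ikzf4 11.7% ± 0.96, Ikzf3 8.48% ± 0.20 and Ikzf5 3.84% ± 0.21 (SD, n = 3). In WT stimulated Treg, Ikzf1 had 21.5% ± 0.12 and Ikzf4 22.004% ± 0.56. The shares of Eos and Ikaros thus came level in WT cells, and the libraries of the 2 groups did not overlap for either gene.

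In cKO Treg, Ikzf1 had 11.3% ± 0.40 of the family's TPM ex vivo and 9.67% ± 0.67 after stimulation. Ikzf2 had 57.2% ± 2.02 ex vivo and 47.2% ± 2.22 after stimulation, and Ikzf4 had 17.6% ± 1.65 and 30.2% ± 0.90. The shares of a library add up to a fixed whole, so that of Ikzf1 and those of the others are not independent, and they are given as a description of the pool. The summed scaled TPM of the 5 genes was 328 ± 11.9 (WT) and 336 ± 32.2 (cKO) in ex vivo libraries and 321 ± 12.03 (WT) and 289 ± 49.6 (cKO) in stimulated libraries, with overlapping ranges between the genotypes in both conditions. Without Ikzf1 the sum was 218 ± 9.53 in WT and 298 ± 27.8 in cKO ex vivo libraries, which did not overlap, and 252 ± 9.80 and 261 ± 46.2 after stimulation, which did. Most of the ex vivo sums was Ikzf2, at scaled means of 139 (WT) and 193 (cKO), a difference that the main test did not call. A relation of these sums to the loss of Ikzf1 was not tested.

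**Figure D4:**
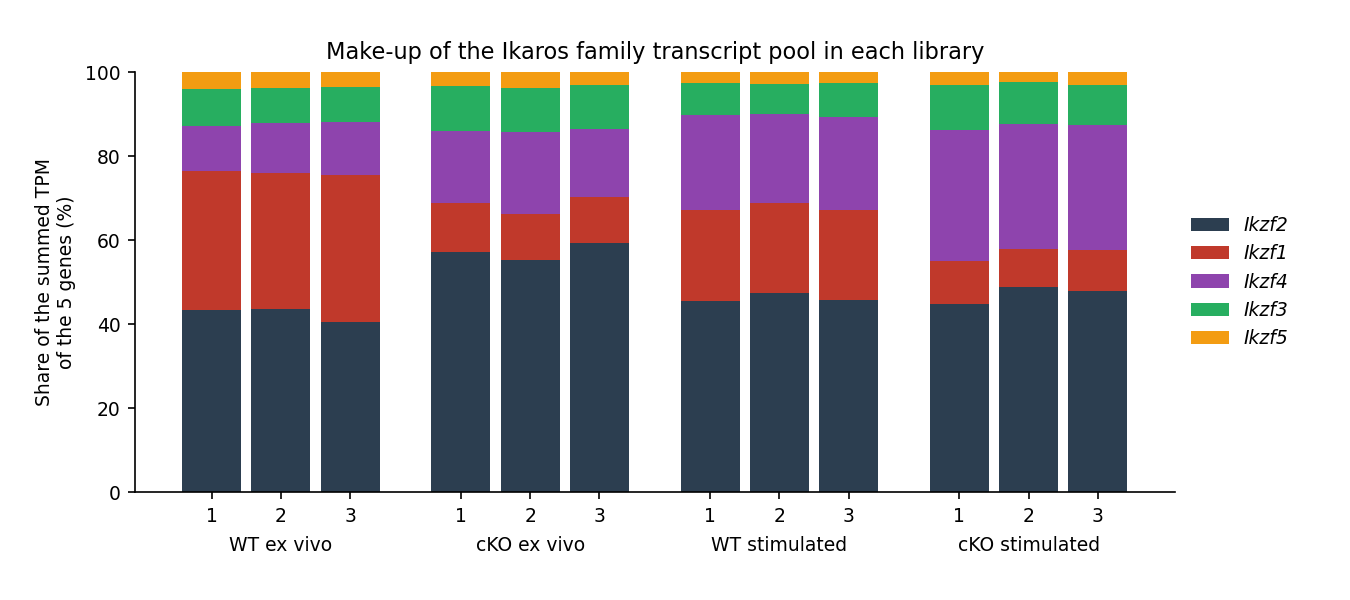
Share of each gene in the summed TPM of the 5 Ikaros family genes, in percent, for the 12 libraries (numbers are replicates). Ikzf1 takes 32.4% to 35.1% in WT ex vivo and 8.95% to 11.7% in cKO libraries, and the share of Ikzf4 is largest in the cKO stimulated libraries, at 29.7% to 31.3%.

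Ratios to Ikzf2 show how the other members moved against Helios alone. In WT ex vivo Treg there were 79.2 TPM of Ikzf1 per 100 TPM of Ikzf2 (74.5 to 86.9 over the 3 libraries), in WT stimulated Treg 46.6 (45.3 to 47.5), and in the cKO groups 19.7 (18.6 to 20.5) ex vivo and 20.5 (18.3 to 23.001) after stimulation. The ratio was lower with stimulation in WT, and in cKO the ranges overlapped. Ikzf4 stood at 27.7 (24.7 to 31.2) per 100 TPM of Ikzf2 in WT ex vivo and 30.7 (27.4 to 35.2) in cKO ex vivo libraries, which overlapped. After stimulation it stood at 47.6 (45.2 to 49.3) in WT and 64.1 (60.8 to 70.0) in cKO libraries, which did not overlap, so the ratio of Eos to Helios RNA was higher with stimulation in both genotypes and, after stimulation, higher in cKO than in WT.

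Ikzf3 stood at 20.03 (19.4 to 20.6) TPM per 100 of Ikzf2 in WT ex vivo and 18.4 (17.6 to 19.2) in cKO ex vivo libraries. After stimulation it stood at 16.5 (15.1 to 17.7) in WT and 21.3 (19.6 to 24.0) in cKO libraries. The ratio was thus lower in all cKO libraries ex vivo and higher in all of them after stimulation, which 3.12% of all tested genes did against Ikzf2. Ex vivo the ranges nearly touched, at 19.2 and 19.4, in libraries where Ikzf3 carried counting errors of 1.93% and 2.39%. Ikzf5 stood at 9.04 (8.66 to 9.41) in WT and 5.93 (5.26 to 6.73) in cKO ex vivo libraries, against 5.80 (5.79 to 5.82) in WT and 6.08 (4.90 to 6.83) in cKO stimulated ones, so that WT ex vivo Treg stood above the rest.

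Ratios to Ikzf2 did not overlap for 3 of 4 genes between the genotypes ex vivo, 3 of 4 after stimulation, 4 of 4 with stimulation in WT and 2 of 4 with stimulation in cKO. Over all tested genes the corresponding shares were 53.4%, 19.2%, 46.7% and 51.2%. An exact two-sided permutation test cannot go below 0.1 for any of these 16 comparisons (Benjamini-Hochberg adjusted p at least 0.133).

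**Figure D5:**
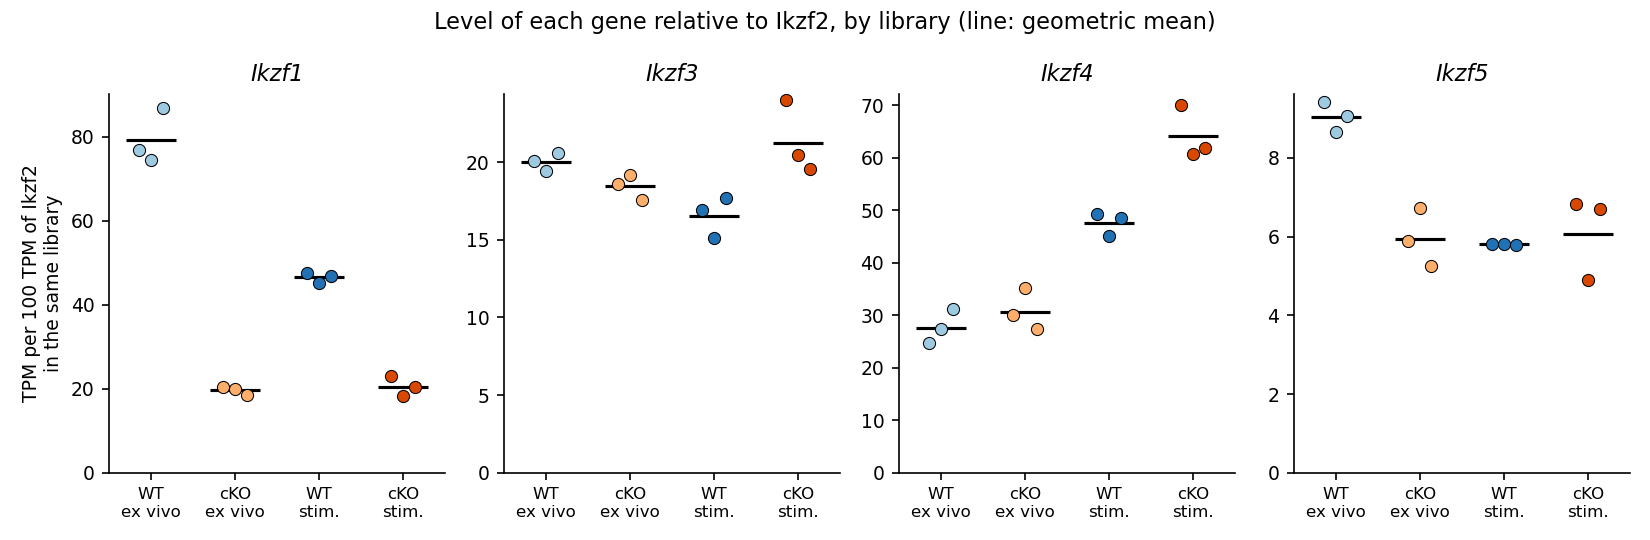
TPM of Ikzf1, Ikzf3, Ikzf4 and Ikzf5 per 100 TPM of Ikzf2 in the same library (points, with the geometric mean of each group as a line, axes from 0). Ikzf4 is highest in cKO stimulated libraries (60.8 to 70.0), Ikzf5 is highest in WT ex vivo libraries (8.66 to 9.41), and Ikzf3 is narrowly lower in cKO than in WT ex vivo and higher after stimulation.

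The genes whose scaled log2 levels followed each member most closely over the 12 libraries are given as a description, since the libraries share 4 group levels. For Ikzf1 they were Fam113b (Pearson r = 0.977), Ms4a4b (0.975) and Klf3 (0.960), a transcriptional repressor. For Ikzf2 they were Mmgt1 (0.977), the nuclear receptor gene Nr4a2 (0.953) and Rel (0.942), which encodes the NF-kB subunit c-Rel. For Ikzf3 they were Lrrc58 (0.948), the splicing regulator Celf2 (0.946) and Phf15 (0.936). For Ikzf4 they were Irf4 (0.988), a transcription factor induced by T cell receptor signals and needed by effector Treg, Myo1c (0.987) and Tnfrsf18 (0.985), which encodes GITR. For Ikzf5 they were Tsr1 (0.982), Insig1 (0.982) and Foxn3 (0.975). With group means removed, so that only differences among replicates count, these values were between 0.47 and 0.95, lowest for the genes listed with Ikzf1. Among the members themselves, r over the 12 libraries was highest for Ikzf2 and Ikzf3 (0.784, and 0.831 with group means removed). It was negative for Ikzf4 with Ikzf5 (−0.837) and with Ikzf1 (−0.739), and less so for Ikzf1 with Ikzf3 (−0.289) and with Ikzf2 (−0.132). With group means removed every pair was positive, from 0.258 (Ikzf4 and Ikzf5) to 0.889 (Ikzf1 and Ikzf3), with Ikzf1 and Ikzf4 at 0.753. Whether pairs of genes outside the family do the same was not tested.

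Irf4 and Tnfrsf18 were also on the lists of early response genes and Treg markers, and their likeness to Ikzf4 follows from how they were picked here. Irf4 had group means of 38.9 TPM (WT) and 100.3 TPM (cKO) ex vivo and 133 and 162 TPM after stimulation, and Tnfrsf18 had 91.3 and 155 TPM ex vivo and 180.4 and 192 TPM after stimulation. Irf4 was higher in cKO by 1.12 ex vivo (limma adjusted p = 0.00123) and by 0.51 after stimulation (adjusted p = 0.0474). Tnfrsf18 differed by 0.53 ex vivo and by 0.32 after stimulation, with adjusted p of 0.0638 and 0.21.

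Of the partners through which Ikaros proteins act and the enzymes that modify them, none of those tested was called between the genotypes by limma. Voom on recovered reads called 1 of them ex vivo (Ppp1cc) and 2 after stimulation (Chd4 and Crbn), against 9.03% and 9.36% of all tested genes. Of 13 NuRD genes, 0 were called in either direction ex vivo or after stimulation, with median log2 differences of 0.01 and −0.18, beside −0.01 and −0.03 over all tested genes. At an unadjusted p under 0.05 there were 2 ex vivo and 6 after stimulation, against 17.9% and 23.8% of all tested genes, and voom called 0 and 1 (Chd4). Chd4, the helicase of the complex, had group means of 82.9 TPM in WT ex vivo and 99.7 TPM in cKO ex vivo libraries, and 107 and 63.9 TPM after stimulation (log2 difference −0.47, limma adjusted p = 0.0532, voom adjusted p = 0.0188). Mbd3, the methyl-CpG-binding-domain subunit, had 21.6 TPM (WT) and 21.9 TPM (cKO) ex vivo. With stimulation, 4 of 13 NuRD genes were called lower in WT and 7 of 13 in cKO, against 19.3% and 26.5% of all tested genes, and 0 were called higher. The helicase gene Chd3 fell by 1.11 in WT and by 1.36 in cKO (limma adjusted p = 6.34e-05 and 1.29e-05).

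Of 5 Sin3 and CtBP genes 4 were expressed highly enough to be tested, and 0 were called between the genotypes, with 0 ex vivo and 2 after stimulation at an unadjusted p under 0.05 (17.9% and 23.8% over all tested genes) and 0 by voom. Ctbp1, which encodes the corepressor through which Eos acts, had 70.1 TPM in WT ex vivo and 73.0 TPM in cKO ex vivo libraries, and Ctbp2 was under the limit, at 1.41 to 2.84 TPM. Sin3a was higher with stimulation in WT by 0.31 (limma adjusted p = 0.0219), and Ctbp1 fell in cKO by 0.43 (adjusted p = 0.0241).

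Crbn, the substrate receptor through which thalidomide analogs direct Ikaros and Aiolos to degradation in human cells, had 43.2 TPM in WT ex vivo and 46.6 TPM in cKO ex vivo libraries, and 0 of 5 genes of its ubiquitin ligase were called between the genotypes, with 2 in each condition at an unadjusted p under 0.05 (17.9% ex vivo and 23.8% after stimulation over all tested genes) and, by voom, 0 ex vivo and 1 (Crbn itself) after stimulation, against 9.03% and 9.36%. After stimulation Crbn had 50.7 TPM in WT and 32.1 TPM in cKO libraries (log2 difference −0.38, limma adjusted p = 0.112, voom adjusted p = 0.045). With stimulation 1 of 5 was lower in WT (Cul4b, where 19.3% of all tested genes were lower), and in cKO 1 was higher (Rbx1) and 1 lower (Cul4b), against 17.3% and 26.5% of all tested genes. Of 6 genes for the kinase CK2, which phosphorylates Ikaros, and the phosphatase PP1, which reverses this, 0 were called between the genotypes, with 1 ex vivo and 2 after stimulation at an unadjusted p under 0.05 (17.9% and 23.8% over all tested genes) and 1 (Ppp1cc) ex vivo by voom, against 9.03%. With stimulation 1 was higher (Csnk2a1) and 1 lower (Ppp1cb) in WT, against 12.7% and 19.3% of all tested genes, and 3 of 6 were lower in cKO (Ppp1ca, Ppp1cb and Ppp1cc), against 26.5%.

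Some genes that mark the state of a Treg differed between the genotypes as well. Of 7 genes of resting Treg, 2 were called lower in cKO ex vivo (Lef1 and Klf2) and 3 after stimulation (Lef1, Tcf7 and S1pr1), against 1.67% and 3.63% of all tested genes, and 0 were higher. Voom called 4 and 7 of these 7 genes lower, against 3.27% and 5.11% of all tested genes. Of 8 genes of effector Treg, 4 were called higher in cKO ex vivo (Klrg1, Cd44, Prdm1 and Il10) and 2 after stimulation (Icos and Prdm1), against 3.62% and 3.30% of all tested genes, and 0 were lower. Voom called 6 and 2 of these 8 genes higher, against 5.76% and 4.25% of all tested genes. Lef1, a transcription factor of naive T cells, had 57.0 TPM in WT ex vivo and 40.7 TPM in cKO ex vivo libraries, and Prdm1, which encodes the effector Treg factor Blimp-1, 5.08 and 10.98 TPM. The part of cell state in the values of Ikzf2, Ikzf3 and Ikzf4 was not tested.

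Of 7 Treg markers, 0 were called between the genotypes ex vivo, with 3 at an unadjusted p under 0.05 (17.9% over all tested genes) and 2 by voom (Tnfrsf18 and Cd4, against 9.03%), and Foxp3 and Il2ra were called higher in cKO after stimulation, by 0.96 and 0.80 (limma adjusted p = 0.00847 and 0.00971), against 3.30% of all tested genes. Nrp1 and Cd3e stood at −0.34 and −0.25 there (limma adjusted p = 0.0598 and 0.28), and voom called Nrp1 as well, as lower, so 3 of 7, against 9.36% of all tested genes. Foxp3 had group means of 161 TPM (WT) and 171 TPM (cKO) ex vivo and of 117 TPM (WT) and 192 TPM (cKO) after stimulation. Among 6 early response genes of T cell receptor stimulation, 4 were called higher and 2 lower with stimulation in WT, where 12.7% and 19.3% of all tested genes were, and 4 higher and 1 lower in cKO, where 17.3% and 26.5% were. Tnfrsf9, which encodes 4-1BB, was higher with stimulation by 1.85 in WT and by 2.26 in cKO (limma adjusted p = 1.72e-05 and 3.64e-06), as were Irf4, Egr2 and Myc in both genotypes. Cd69, an early activation antigen that keeps T cells in tissue, fell by 1.36 in WT and by 1.71 in cKO, and the nuclear receptor gene Nr4a1 fell by 0.55 in WT and stood at 0.16 in cKO (limma adjusted p = 0.0307 and 0.464).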

How the data were processed

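Per the study's methods, rRNA-depleted, strand-specific libraries were sequenced as 51-base pairs, aligned to mm9 with STAR 2.6.0c and counted on Ensembl exons by strand with HTSeq 0.6.1, and rRNA genes were removed. The signal values used here are TPM as deposited by the authors, with 1 value per gene and library. The log2 values deposited by the authors beside them are the logarithm of TPM plus the TPM of 1 read and served only to recover reads. Of all values, 99.997699% came to a whole number of reads within 0.01 reads, and 10 did not, the smallest of them at 1267073 reads. The authors' table of comparisons, which holds fold changes and p-values, was not used.

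Tests covered the 13318 of 36222 genes that reached a mean of 5 TPM in 1 group or more. This limit was taken as nearer than 1 TPM to the number of genes the study tested. A limit of 1 TPM kept 33873 genes, and the TMM scaling was then computed over those. Libraries were scaled by TMM (trims of 30% and 5%), and limma 3.58.1 (R 4.3.3) with a mean-variance trend was fitted to log2(scaled TPM + 1) over all 12 libraries with 1 coefficient per group. P-values were two-sided and Benjamini-Hochberg adjusted over all tested genes, and 0.05 was the threshold. TPM keeps no count model, so voom on recovered reads was an alternative. The other alternatives were the filter, a pseudocount of 0.1, other scalings, array weights, the replicate number as a block, only the 6 libraries of a comparison, no trend and each library left out. Ratios within a library were compared by exact permutation tests (SciPy 1.17.1). Figures were drawn with matplotlib 3.10.9.

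The members, the gene lists and the rule for named genes were chosen with earlier results of these data known. The text names the 5 members, the genes on those lists and the 3 genes most correlated with each member over the 12 libraries. The methods call the libraries of a group individual mice. Libraries of a group differed by more than sampling noise (chi-square per degree of freedom of at least 4.91), so each counted as 1 replicate. Counting errors cover sampling of reads only. Some items are not reported here.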

Additional observations from a re-analysis of the deposited data

Results flagged for a closer look

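The ratio of Ikzf3 to Ikzf2 drew attention because the genotypes differed in opposite directions in the 2 conditions. All 3 cKO libraries lay below all 3 WT libraries ex vivo, by a log2 difference of −0.12, and above them after stimulation, by 0.36. The difference between these effects was 0.48 on the log2 scale. Ex vivo the nearest libraries were replicates 2, at 19.2 (cKO) and 19.4 (WT) TPM per 100 of Ikzf2. Counting errors of Ikzf3 were 1.93% (cKO) and 2.39% (WT) there, wide enough to span that gap. No test is given for the difference between the effects, since the separation of the groups by which the ratio was picked already fixes the result of a permutation test. Against Ikzf2, 3.12% of all tested genes showed the same order of libraries. The ratios of Ikzf1, Ikzf4 and Ikzf5 to Ikzf2 gave differences of 0.83, 0.28 and 0.68. In the limma fit, the interaction of Ikzf3 alone was −0.12 and that of Ikzf2 alone −0.60, and neither was called.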

How the results depend on the processing

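Values are log2 differences, and the cause of a change was not tested. With quantile normalization, Ikzf2 (0.49) between the genotypes ex vivo, Ikzf4 (0.54) between them after stimulation and Ikzf2 (0.66) with stimulation in WT became called, the Ikzf1 call with stimulation in cKO was lost (−0.071), and signs turned for Ikzf2 (0.076) between the stimulated genotypes, Ikzf3 (0.0075) with stimulation in WT, Ikzf2 (0.25, called as higher) and Ikzf3 (0.060) with stimulation in cKO, and Ikzf3 (0.053) and Ikzf5 (−0.084) in the interaction. Voom (0.46) and array weights (0.52) called Ikzf2 ex vivo, and array weights also called Ikzf4 (0.34) between the stimulated genotypes and the Ikzf2 interaction (−0.67) and turned Ikzf5 (0.0029) between the stimulated genotypes. With TPM rescaled without Gm10800, an alternative added after seeing the data, Ikzf2 was called ex vivo (0.63) and with stimulation in WT (0.54), calls were lost with stimulation for Ikzf1 (−0.22) and Ikzf5 (−0.095) in WT and for Ikzf1 (−0.18), Ikzf2 (−0.24) and Ikzf5 (−0.19) in cKO, and signs turned for Ikzf5 ex vivo (0.020), Ikzf3 with stimulation in WT (0.26) and the Ikzf5 interaction (−0.099). With a filter at 1 TPM or none, calls were lost for Ikzf4 ex vivo (0.59 and 0.61), Ikzf1 (−0.92 and −0.90) and Ikzf4 (0.61 and 0.63) with stimulation in WT and Ikzf4 with stimulation in cKO (0.0060 and 0.017), and without a filter for Ikzf5 in WT (−0.71). Signs turned there for Ikzf3 (−0.076 and −0.072) and Ikzf4 (−0.014 and −0.011) between the stimulated genotypes, Ikzf2 with stimulation in WT (−0.17 and −0.14) and the interactions of Ikzf1 (−0.043 and −0.060) and Ikzf5 (−0.18 and −0.20). With TPM as deposited, calls were lost for Ikzf4 ex vivo (0.84), Ikzf1 (−0.47) and Ikzf5 (−0.32) with stimulation in WT and Ikzf4 with stimulation in cKO (0.22), and signs turned for Ikzf5 ex vivo (0.085), Ikzf3 between the stimulated genotypes (−0.062), Ikzf3 with stimulation in WT (0.014) and the interactions of Ikzf1 (−0.29) and Ikzf5 (−0.40). With only the 6 libraries compared, the Ikzf2 call with stimulation in cKO was lost (−0.50, limma adjusted p = 0.0519).

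With each library left out in turn, values ran from 0.40 to 0.57 (Ikzf2) and 0.56 to 0.64 (Ikzf4) between the genotypes ex vivo, from −0.31 to 0.016 (Ikzf2), 0.078 to 0.42 (Ikzf3), 0.16 to 0.46 (Ikzf4) and −0.11 to 0.010 (Ikzf5) between the stimulated genotypes, from −0.54 to −0.27 (Ikzf1), −0.69 to −0.34 (Ikzf2) and −0.45 to −0.077 (Ikzf3) with stimulation in cKO, and from 0.14 to 0.39 (Ikzf1), −0.77 to −0.43 (Ikzf2), −0.26 to 0.10 (Ikzf3), −0.44 to −0.12 (Ikzf4) and 0.0020 to 0.16 (Ikzf5) for the interaction. Values also ran from −0.18 to −0.064 for Ikzf5 between the genotypes ex vivo and from 0.032 to 0.14 for Ikzf2 with stimulation in WT. Without cKO stimulated replicate 2, Ikzf2 ex vivo (limma adjusted p = 0.0482) and Ikzf3 with stimulation in cKO (adjusted p = 0.0279) passed the threshold. Of 300 member values with 1 library left out, 287 kept direction and side of the threshold, and of 295 under other alternatives 241 did, with 25 reversed, 20 no longer called and 9 newly called. Without WT ex vivo replicate 3, the female library, every call made with that group held. With the replicate block, no call on a member changed (Ikzf4 ex vivo 0.60, limma adjusted p = 0.0282), and 516, 630, 3945 and 5457 genes were called in the 4 comparisons in place of 704, 923, 4262 and 5835, and 65 for the interaction in place of 147. Of 18 same-numbered pairs, 2 had deviations correlated above 0.1, and 6 of 12 libraries had their best match in another group under their own number. Low correlations of deviations from means of 3 cannot show that mice were not shared, so pairing by number was not settled. WT stimulated replicate 3 had Ddx3y at 35.2 TPM, unlike the female WT ex vivo replicate 3, so these 2 libraries were from different mice.

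Counts of all genes called ran from 56 (no filter) to 1203 (voom) between the genotypes ex vivo, from 68 (1 TPM) to 2336 (array weights) between the stimulated genotypes, from 1694 (no filter) to 6343 (rescaled) with stimulation in WT, from 4098 (without cKO ex vivo replicate 1) to 7374 (array weights) in cKO, and from 0 (1 TPM and no filter, with 2405 and 2686 genes at an unadjusted p under 0.05) to 505 (array weights) for the interaction by limma. With 3 libraries a group, exact tests of a share or ratio between 2 groups cannot pass 0.05, and reads limit Ikzf5 most.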
